A study of Mus musculus with 6 samples.

Results

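The Toll-like receptors (TLRs) of the cell surface and their coreceptors were followed in cultured plasmacytoid dendritic cells (pDCs) of mice. The set was chosen by gene name: the receptors *Tlr1*, *Tlr2*, *Tlr4*, *Tlr5* and *Tlr6*, the coreceptors *Cd14* and *Ly96* (MD-2), the receptor homolog *Cd180* (RP105) and its partner *Ly86* (MD-1). Of these 9 genes, 8 were measured, each by 1 probe set, among 19937 genes that a probe set names. *Tlr5*, the receptor of bacterial flagellin, is paired with no probe set in the platform table used and is not analysed here. RNA was read on Affymetrix Mouse Gene 1.0 ST arrays, 6 in all. Bone marrow of 3 C57BL/6 mice with floxed alleles of both *Gfi1* and *Gfi1b* (Gfi1f/f; Gfi1bf/f) and a tamoxifen-inducible Cre (ERCre) was grown in 25 ng/ml Flt-3L, the cytokine of dendritic cell development, and B220+ CD11c+ cells were sorted as pDCs. Per mouse, 1 culture was left untreated (WT) and 1 received 1 µM tamoxifen (KO), so WT and KO share genotype, Cre and medium. The Cre is knocked into the ubiquitously active *Rosa26* locus, so every cell type in the culture carries it, and the study describes the deletion as inefficient. As no arrays of tamoxifen-treated cells without Cre or floxed alleles were analysed here, tamoxifen itself and the deletion cannot be told apart. The sources do not give the age of the mice.

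TLRs are leucine-rich repeat receptors for microbial molecules, and they signal through a cytoplasmic TIR domain to NF-kappaB. TLR4 senses bacterial lipopolysaccharide (LPS) together with MD-2, which holds the lipid, and CD14, which hands it over. TLR2 pairs with TLR1 for triacylated and with TLR6 for diacylated lipopeptides, while CD180 has no TIR domain and with MD-1 adjusts LPS responses, mostly in B cells. Mouse pDCs are known for the endosomal nucleic acid receptors TLR7 and TLR9, whereas surface TLRs and CD14 are typical of monocytes, macrophages and neutrophils. *Gfi1* and *Gfi1b* encode zinc finger repressors. In the lists that the study took from a public compendium of immune cells, *Cd180* and *Ly86* are among the genes higher in pDCs than in hematopoietic stem cells (HSCs) and among those higher in B cells than in HSCs. *Tlr1* is in the B cell list, and *Tlr4* is among the genes higher in HSCs than in pDCs.

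The promoter sequences used here, from RefSeq (GRCm38.p6), cover 6 of the 9 genes, among them *Tlr5*, which was not measured. Those of *Tlr4*, *Cd14* and *Ly96* were not among them. The 250 bases before the start site are shown for the member that was lower in all 3 KO cultures, *Tlr1* (chr5:64933559-64933808, minus strand), and for the pair that stood higher in mouse 1, *Cd180* (chr13:102693297-102693546, plus strand) and *Ly86* (chr13:37345095-37345344, plus strand). Sequences run 5′ to 3′ on the gene's strand, and capitals mark GAGGAA, an ETS site that PU.1 can bind.
Tlr1: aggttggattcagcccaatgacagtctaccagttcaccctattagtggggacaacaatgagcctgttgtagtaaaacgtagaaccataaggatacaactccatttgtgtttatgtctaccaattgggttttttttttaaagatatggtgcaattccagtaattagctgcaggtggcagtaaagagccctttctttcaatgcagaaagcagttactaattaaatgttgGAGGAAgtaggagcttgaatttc
Cd180: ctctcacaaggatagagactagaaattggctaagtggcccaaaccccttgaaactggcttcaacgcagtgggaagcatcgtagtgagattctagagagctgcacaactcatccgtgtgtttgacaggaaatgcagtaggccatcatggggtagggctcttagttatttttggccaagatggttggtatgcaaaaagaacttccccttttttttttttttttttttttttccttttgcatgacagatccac
Ly86: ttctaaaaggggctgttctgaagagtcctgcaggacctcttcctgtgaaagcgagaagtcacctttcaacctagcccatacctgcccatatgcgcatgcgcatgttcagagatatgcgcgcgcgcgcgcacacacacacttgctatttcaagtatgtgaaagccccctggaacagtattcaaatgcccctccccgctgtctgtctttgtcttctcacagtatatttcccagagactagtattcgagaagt
On either strand, the stretch AAATCA of the GFI site was in 0 of the 6 promoters, against 12.7% of 27025 promoters of the same length. The shorter AATC within it was not searched, and its reverse complement GATT occurs in the windows of *Tlr1* and *Cd180*. GAGGAA, also searched on either strand, was in 1 of the 6, that of *Tlr1*, against 23.1%. The shorter GGAA was not searched and occurs unmarked in the windows of *Cd180* and *Ly86*. The letters of these motifs do not overlap one another in any of the 6 windows. *Tlr1* and *Tlr6* lie side by side on chromosome 5, and the window of *Tlr6* holds neither motif.

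The deposited values are normalized intensities on a linear scale, and an intensity has no unit. Differences are log2(KO) minus log2(WT). The level that unexpressed genes reach was taken from 1194 olfactory and vomeronasal receptor genes, whose 95th percentile was 56.1 to 71.4 on the 6 arrays and is called the background below. In the KO arrays of mice 1, 2 and 3 it was higher than in the WT arrays by 0.16, 0.35 and 0.16 on the log2 scale. *Gfi1* measured 49.1 ± 6.49 (SD, n = 3) without and 63.2 ± 3.44 with tamoxifen, below background on all 6 arrays. *Gfi1b* measured 165 ± 12.9 without and 244 ± 44.2 with tamoxifen, a log2 difference of 0.55 (standard error 0.16, adjusted p = 0.69 from limma). Neither mean was lower in the arrays labelled KO. Each of these genes has 1 probe set, which covers the whole transcript and does not check the deletion. The arrays of mouse 1 stood apart from the rest. The summed intensity of 12 pDC markers, all above background on all 6 arrays, was 46296 to 48144 in mouse 1 and 21497 to 33069 in mice 2 and 3. That of 13 monocyte and macrophage markers was 8080.0 to 9547 in mouse 1 and 28282 to 35601 in mice 2 and 3, with 10 of the 13 below the other 4 arrays in mouse 1 and *Mertk* below background there. Results of the surface TLR genes are therefore given per mouse and without mouse 1. Differences of other pathway genes are means of the 3 mice unless stated. In such bulk samples, fewer cells of a type and less RNA per cell cannot be told apart.

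The LPS receptor genes had no common direction between KO and WT pDCs. *Tlr4* intensities in mice 1, 2 and 3 were 53.1, 392 and 469 in WT cultures and 66.0, 262 and 359.7 in KO cultures. The WT array of mouse 1 was below background, and the KO array of that mouse was the next lowest. Log2 differences were 0.31, -0.58 and -0.38, with a mean of -0.22 (95% interval -2.63 to 2.20, adjusted p = 0.97 from limma). *Ly96* had 79.1, 220.3 and 204 in WT and 92.5, 178 and 210.3 in KO pDCs. Its arrays were all above background, with differences of 0.23, -0.30 and 0.05 and a mean of -0.01 (95% interval -1.17 to 1.15, adjusted p = 1.0 from limma). *Cd14* had 159, 1067 and 1008 in WT and 114, 440.0 and 1116 in KO pDCs. The KO culture of mouse 2 thus stood between those of mouse 1 and mouse 3, and the differences were -0.47, -1.28 and 0.15. Their mean was -0.53 (95% interval -3.06 to 1.99, adjusted p = 0.92 from limma). Within mouse 2 all 3 genes of the complex were lower in the KO culture, and within mouse 1 *Tlr4* and *Ly96* were higher in it.

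Among the lipopeptide receptors, *Tlr1* was lower in the KO culture of every mouse. WT intensities in mice 1, 2 and 3 were 82.4, 521 and 439.8, and KO intensities were 54.3, 295 and 392. The groups overlapped, since both cultures of mouse 1 lay below the other 4, and the KO array of mouse 1 was below background. The differences were -0.60, -0.82 and -0.17, with a mean of -0.53 (95% interval -2.89 to 1.83, adjusted p = 0.91 from limma). With the mouse as a block the interval was -0.87 to -0.19, with an unadjusted p of 0.0084 and an adjusted p of 0.31 from limma. *Tlr6* had 82.6, 209 and 196 in WT and 87.7, 143 and 157 in KO pDCs. It was lower in the KO cultures of mice 2 and 3 by differences of -0.55 and -0.32, and stood at 0.09 in mouse 1 (mean -0.26, 95% interval -1.24 to 0.72, adjusted p = 0.90 from limma). *Tlr2*, the receptor shared by both pairs, had 142, 310.4 and 212 in WT and 158, 266 and 269 in KO pDCs. Its lowest and its highest arrays were both WT, and its differences were 0.15, -0.22 and 0.34 (mean 0.09, 95% interval -0.72 to 0.90, adjusted p = 0.96 from limma).

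*Cd180* and *Ly86* were the members without a lower KO value in mice 2 and 3. WT intensities of *Cd180* in mice 1, 2 and 3 were 4736, 2935 and 2534, and KO intensities were 4667, 3547 and 3525. Both cultures of mouse 1 were above the other 4, and both KO cultures of mice 2 and 3 were above the WT cultures of these mice. The differences were -0.02, 0.27 and 0.48 (mean 0.24, 95% interval -0.37 to 0.85, adjusted p = 0.84 from limma). *Ly86* had 2269.7, 1954 and 1734 in WT and 2267, 2025 and 2017 in KO pDCs. The order of its arrays was like that of *Cd180* but over a smaller range, 0.39 against 0.90 on the log2 scale, with differences of -0.00, 0.05 and 0.22 (mean 0.09, 95% interval -0.22 to 0.40, adjusted p = 0.89 from limma).

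**Figure D1:**
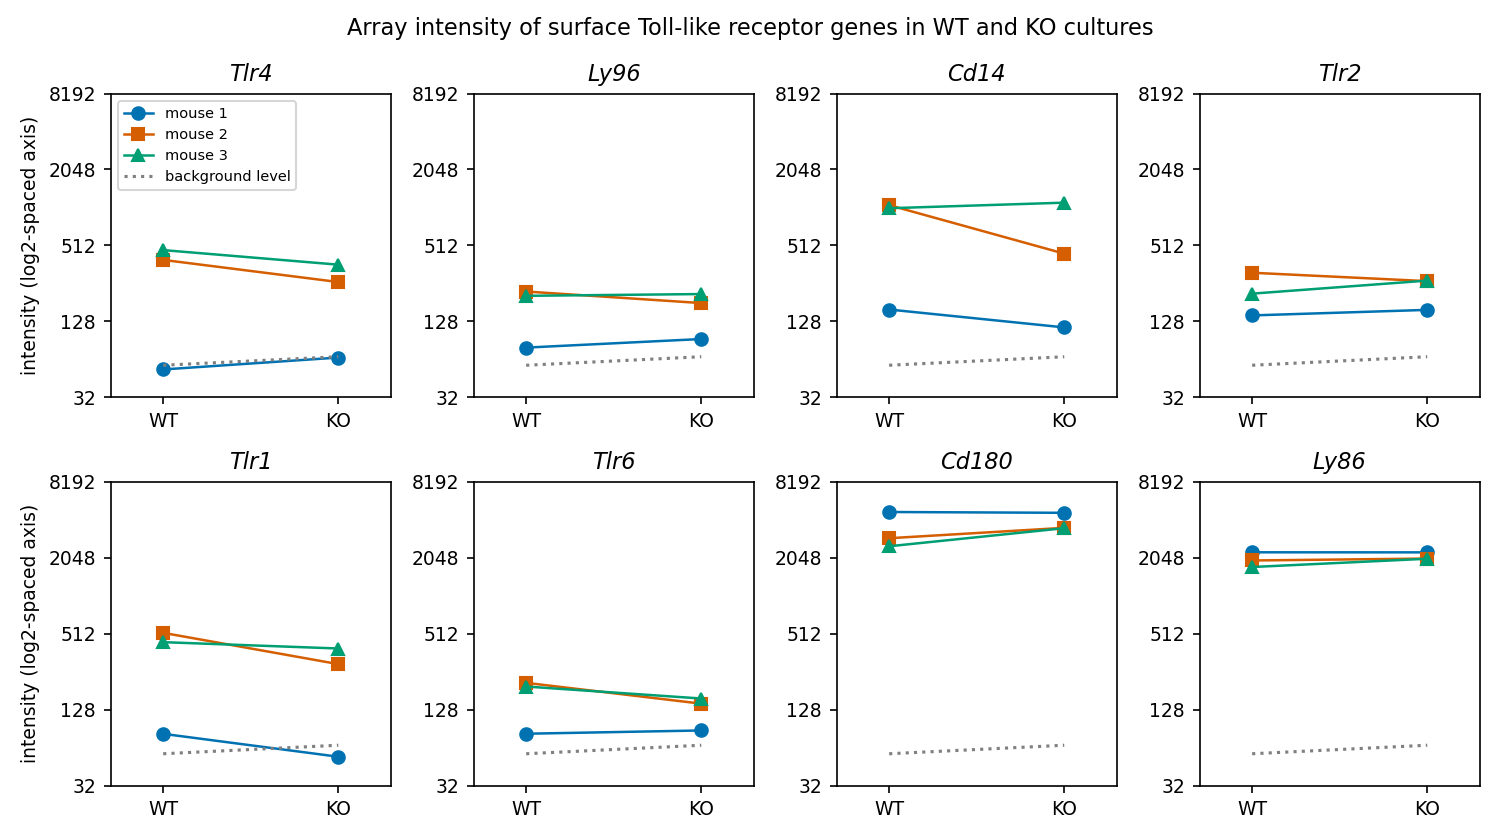
Intensity (log scale) of the 8 measured genes in WT and KO pDCs, 1 line per mouse and 1 panel per gene, with the background as a dotted grey line. *Tlr1*, *Tlr2*, *Tlr4*, *Tlr6*, *Cd14* and *Ly96* have both points of mouse 1 at the bottom, and *Cd180* and *Ly86* have them at the top.

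Over the 8 genes, 0 had an adjusted p (limma) under 0.05 between KO and WT, as did 0% of the 21640 named probe sets. An unadjusted p under 0.05 was reached by 0 of the 8, against 7.05% of all probe sets. With the mouse as a block 0 passed the adjusted p and 1, *Tlr1*, had an unadjusted p under 0.05 with a lower KO value, against 5.99% of all probe sets. The 95% intervals of all 8 were narrower with this block, as differences between mice no longer widened them. They were -1.13 to 0.06 for *Cd14*, -0.64 to 0.21 for *Tlr4*, -0.32 to 0.30 for *Ly96* and -0.59 to 0.08 for *Tlr6*. For *Tlr2*, *Cd180* and *Ly86* they were -0.23 to 0.41, -0.05 to 0.54 and -0.15 to 0.33. The WT and KO arrays overlapped for all 8, and 14.8% of all probe sets had groups that did not overlap. KO was lower in all 3 mice for 1 of the 8, against 17.4%, and higher in all 3 for 0, against 21.3%. These shares do not set the 8 genes above the background of all probe sets. Their median difference was -0.11, against 0.03 for all probe sets. By mouse it was 0.04, -0.43 and 0.10 in mice 1, 2 and 3, where the medians of all probe sets were -0.00, 0.02 and 0.04, and 6 of the 8 genes had their lowest difference in mouse 2.

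**Figure D2:**
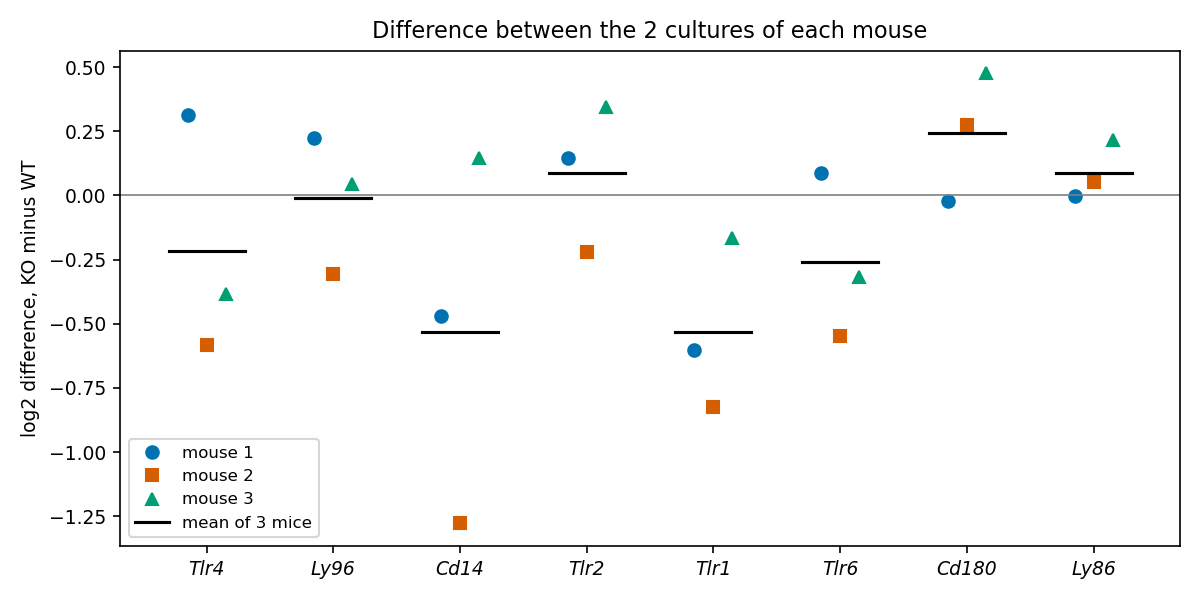
Log2 intensity difference, KO minus WT, of the 8 genes in each mouse, 1 symbol per mouse, with the mean of the 3 mice as a bar. *Tlr1* is the gene with all 3 symbols below 0, and the symbol of mouse 2 is the lowest for 6 of the 8 genes.

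The comparison was repeated without both arrays of mouse 1. *Tlr1* (-0.50), *Tlr4* (-0.48) and *Tlr6* (-0.43) had lower KO values in both other mice, and *Cd180* (0.38) and *Ly86* (0.13) had higher ones. Across all probe sets 28.9% were lower and 37.5% higher in both mice. At an unadjusted p under 0.05 in this fit, *Tlr1*, *Tlr4* and *Tlr6* were lower, against 7.79% of all probe sets, and *Cd180* was higher, against 9.77%. In the same fit 0 of the 8 passed the adjusted p (smallest 0.18 for *Tlr6*), against 0.499% of all probe sets. With the mouse as a block in addition, the smallest adjusted p was 0.10, for *Tlr4*, where 2.37% of all probe sets passed. *Cd14*, *Ly96* and *Tlr2* had differences of opposite sign in mice 2 and 3. Marker sums also differed between KO and WT cultures. On the log2 scale, KO minus WT in mice 1, 2 and 3 was -1.23, -1.73 and -1.21 for the sum of neutrophil markers. For macrophage markers it was -0.24, -0.26 and -0.22. These sums rest mostly on the brightest genes. By gene, 8 of 12 neutrophil and 6 of 13 macrophage markers were lower in all 3 mice, against 17.4% of all probe sets. Others were not, such as *Mpo* (1.01, -0.41 and 0.74). Stromal markers had -0.01, -1.35 and -1.33 and B cell markers 0.15, -0.53 and -0.33. Conventional dendritic cell markers had -0.07, 0.10 and 0.23 and pDC markers -0.06, 0.36 and 0.50. Their part in the differences of the receptor genes was not tested.

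For most of these genes, levels differed more between the mice than between the KO and WT pDCs of a mouse. In limma, where the cultures of a mouse served as its replicates, 6 of the 8 genes differed between the 3 mice, against 8.91% of all probe sets, and all 6 were lowest in mouse 1. The adjusted p given beside each fold is from this test over the 3 mice. The contrast of mouse 1 with mice 2 and 3 was not tested by itself. Geometric mean intensities of *Cd14* were 6.33-fold lower in mouse 1 than in mice 2 and 3 (adjusted p = 0.0044). *Tlr4* was 6.13-fold lower (adjusted p = 0.0013) and *Tlr1* 6.03-fold lower (adjusted p = 0.00056), from 403 in mice 2 and 3 to 66.9 in mouse 1. *Ly96* was 2.37-fold lower (adjusted p = 0.0072), *Tlr6* 2.05-fold (adjusted p = 0.019) and *Tlr2* 1.75-fold (adjusted p = 0.032). *Cd180* was 1.51-fold and *Ly86* 1.18-fold higher in mouse 1, and neither passed (adjusted p = 0.077 and 0.40 from limma). Both arrays of mouse 1 were below the other 4 for 6 genes and above them for 2, against 14.5% and 21.6% of all probe sets. As *Tlr1* and *Tlr4* were near background in mouse 1, their folds may understate the difference. Between mice 2 and 3, tested without mouse 1, 0 of the 8 genes passed (smallest adjusted p = 0.56), as 0.134% of all probe sets did, and 1, *Tlr4*, had an unadjusted p under 0.05, against 7.7% of all probe sets. This comparison of mice was added after the data were seen.

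Markers of other cells moved with these levels. The summed neutrophil markers were 634 to 1485 in mouse 1 and 2822 to 12088 in mice 2 and 3, with 11 of 12 lower in mouse 1 and *Ltf*, *Elane*, *Cxcr2*, *Mmp9* and *Mmp8* below background there. B cell markers were 1918 to 2135 against 3588 to 5191 (7 of 10 lower), and stromal markers 634 to 641 against 2874 to 7378 (10 of 10 lower). Conventional dendritic cell markers were 7313 to 7674 in mouse 1 and 5775 to 7158 in mice 2 and 3, with 3 of 10 lower and 3 higher. The pDC markers, like *Cd180* and *Ly86*, were above the other arrays in mouse 1 for 10 of 12. How far these cells account for the receptor levels was not tested, and no array of sorted macrophages, neutrophils or B cells was analysed here.

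**Figure D3:**
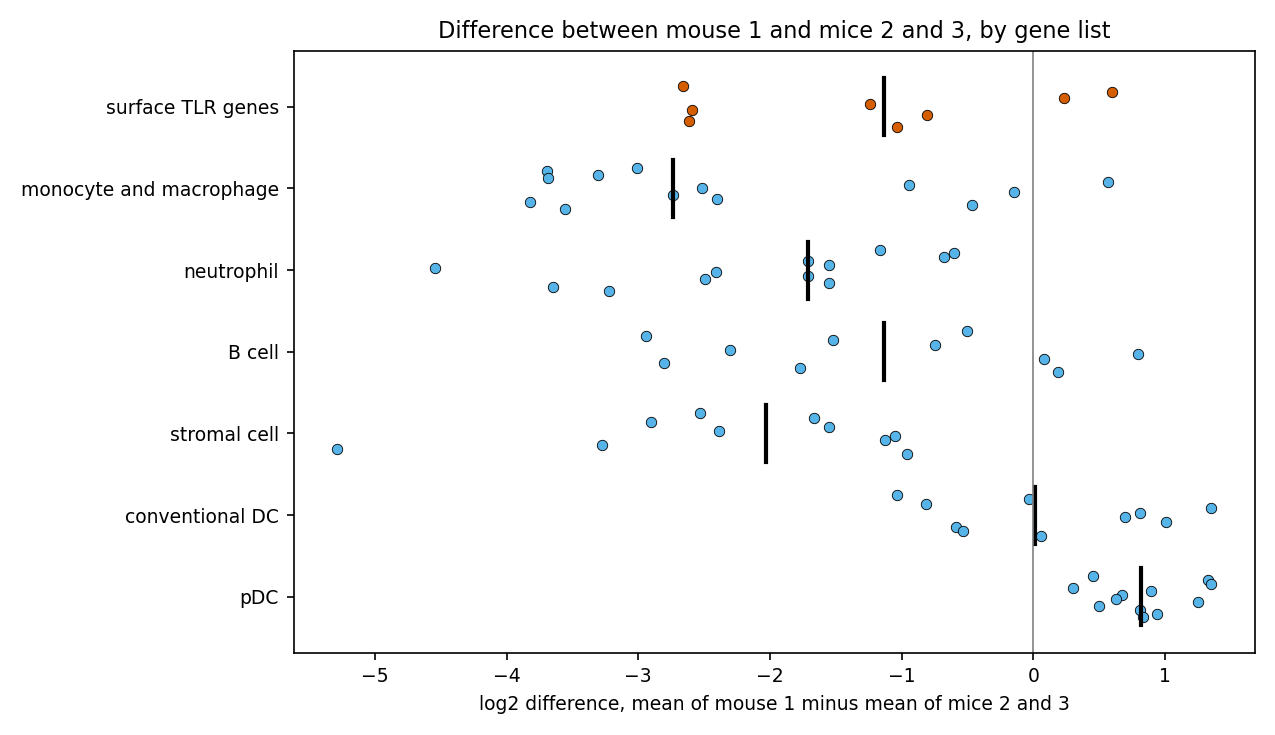
Log2 level of mouse 1 minus the mean of mice 2 and 3 for the surface TLR genes and the marker lists, with 1 dot per gene and the median of a list as a bar. The surface TLR genes have a median of -1.14, macrophage markers -2.73, neutrophil markers -1.71, B cell markers -1.14 and pDC markers 0.82.

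Differences of receptors and their partners were set side by side. Taken within each mouse, the difference of *Tlr2* minus that of *Tlr1* was 0.75, 0.60 and 0.51 in mice 1, 2 and 3 (mean 0.62, SD 0.12, n = 3), so that *Tlr2* stood higher relative to *Tlr1* in every KO culture. For *Tlr2* minus *Tlr6* the values were 0.06, 0.33 and 0.66. For *Tlr4* minus *Ly96* they were 0.09, -0.28 and -0.43, and for *Tlr4* minus *Cd14* 0.78, 0.69 and -0.53. For *Cd180* minus *Ly86* they were -0.02, 0.22 and 0.26. These pairs are described, with no test, and for *Tlr4* and *Tlr1* the values of mouse 1 rest on 1 array below background each. In level, mouse 1 minus mice 2 and 3 was -2.59 for *Tlr1* and -0.81 for *Tlr2* on the log2 scale.

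The genes with the profile most like that of a member were found by the root mean square difference of centred log2 intensities over the 6 arrays, among 11489 genes. For *Tlr4* they were *Fcgr1* (0.09), the high-affinity Fc receptor of macrophages, *Ccl3* (0.10), a chemokine, and *Gng11* (0.11), a G protein subunit. For *Tlr1* they were *Csf1r* (0.13), the receptor of macrophage colony-stimulating factor, *Ms4a1* (0.13), which encodes CD20 of B cells, and *B4galt6* (0.15), a galactosyltransferase. *Tlr2* was nearest to *Cd300a* (0.06), an inhibitory receptor, *Tpcn1* (0.06), a channel of endosomes, and *Cd24a* (0.08). *Tlr6* was nearest to *Fhl3* (0.04), *Nfix* (0.06) and *Sec14l1* (0.07), and *Ly96* to *Blvrb* (0.07), biliverdin reductase B, *Lasp1* (0.07) and *Gsto1* (0.09). *Cd14* had no neighbour as close, with *Igkv9-120* (0.20), an immunoglobulin segment, *Mmp14* (0.23), a metalloproteinase, and *Il15* (0.25). In mouse 1 some neighbours were below background, so their match rests partly on values that are not exact. *Igkv9-120*, *Il15* and *Gng11* were below it on both arrays of mouse 1, and *Ms4a1* and *B4galt6* on its KO array. No member was among these neighbours. *Cd180* and *Ly86* were left out of this search, as their range was under 1 on the log2 scale.

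Of 67 other genes of the TLR pathway, 62 were measured. Between KO and WT pDCs, limma gave 0 of the 62 an adjusted p under 0.05, whether the mouse was a block or not. At an unadjusted p under 0.05 there were 0 without the block. With the block, 4 had an unadjusted p under 0.05 with higher and 9 with lower KO values, against 7.46% and 5.99% of all probe sets. Among the 6 other TLRs, *Tlr9*, the endosomal sensor of CpG DNA, had a difference of 0.56, and *Tlr8* and *Tlr13*, endosomal sensors of RNA, had -0.42 and -0.34. *Tlr7*, the single-stranded RNA receptor, had 0.30 (unadjusted p = 0.15 with the block in limma). In mice 1, 2 and 3 the differences were 0.06, 0.58 and 1.04 for *Tlr9* and -0.14, 0.20 and 0.83 for *Tlr7*. The 5 TIR adaptors had a median of -0.02, the 11 kinases and ubiquitin ligases -0.11, the 8 NF-kappaB genes 0.05 and the 5 chaperones 0.02, with 0 members at this threshold in any of these lists. *Myd88*, the adaptor of all surface TLRs but for the TRIF arm of TLR4, had a difference of 0.01. In mice 1, 2 and 3 it was -0.26, 0.05 and 0.25. Of the 7 inhibitors, *Irak3* (-0.62), the inactive kinase IRAK-M of macrophages, had a lower and *Socs1* (0.35) a higher value. Of the 6 genes of ligand delivery, *Cd36* (-0.50), which helps TLR2 with TLR6, and *Itgam* (-0.69), an integrin chain of myeloid cells, had lower values. Of the 14 target genes, *Cxcl10* (0.68) and *Ccl5* (0.81), chemokines induced by interferon, had higher values. *Il1b* (-0.45), *Il1a* (-0.56), *Cxcl2* (-0.72) and *Ptgs2* (-0.66), made by activated myeloid cells, had lower ones. Some of these differences rest on values below background and are not exact. *Cxcl2* was below background on 4 arrays, all 3 KO arrays among them. *Cxcl10*, *Il1a*, *Ptgs2*, *Tlr8* and *Tlr13* were below it on both arrays of mouse 1, and *Irak3* on 1 of them.

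**Figure D4:**
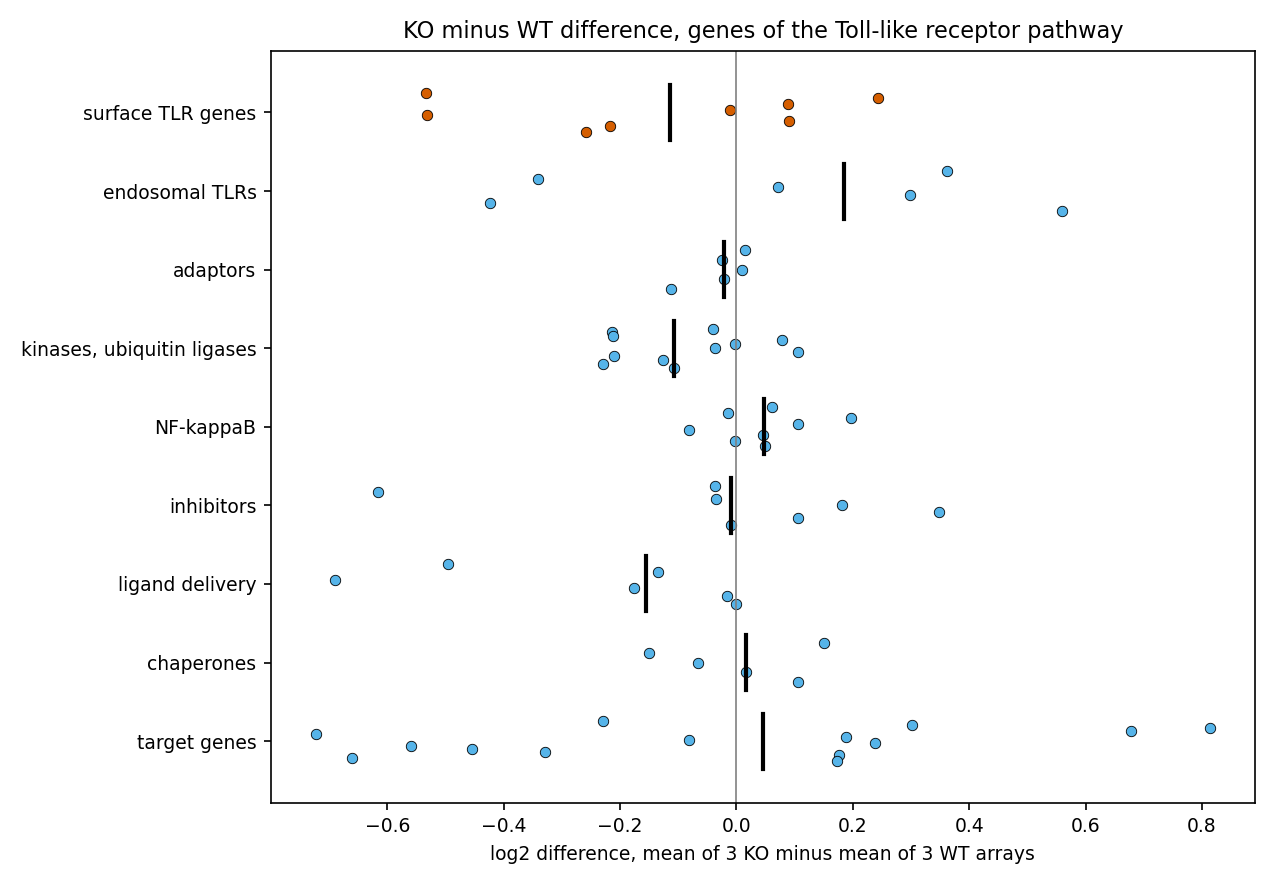
Log2 intensity difference, KO minus WT, of the surface TLR genes and of 8 lists of other pathway genes, with 1 dot per gene (mean of 3 mice) and the median of a list as a bar. Medians lie between -0.16 (ligand delivery) and 0.19 (endosomal TLRs).

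The difference between mice ran through the pathway unevenly. In the same test over mice, 18 of the 62 genes passed, 16 of them lower and 2 higher in mouse 1, against 5.62% and 3.29% of all probe sets. In mouse 1 *Tlr13* was at 54.5 (WT) and 43.1 (KO), both below background, and at 638 to 976 in the other 4 cultures. *Tlr8* had 32.5 and 26.4 in mouse 1 and 262 to 389 in the others, and *Tlr3*, the receptor of double-stranded RNA, was lower in mouse 1 too. *Tlr7* (1439 and 1308 in mouse 1, 597 to 1063 in the others) and *Tlr9* (1115 and 1164 in mouse 1, 412 to 915 in the others) stood highest in mouse 1 without passing (adjusted p = 0.15 and 0.096 from limma). Of the ligand delivery genes 4 were lower in mouse 1, *Cd36*, *Itgam*, *Lgals3* and *Lbp*, and *Hmgb1* was higher. Of the adaptors, *Tirap*, which brings MyD88 to TLR2 and TLR4 at the membrane, and *Ticam2*, the bridging adaptor of TLR4, were lower in mouse 1, while *Myd88* and *Ticam1* did not pass. *Irak3*, *Ikbke* and the targets *Il1a*, *Cxcl10*, *Ccl3*, *Ccl5* and *Ptgs2* were also lower, and *Nfkbiz*, 1 of the NF-kappaB genes, was higher. Of the 5 chaperones, among them *Unc93b1* and *Hsp90b1*, 0 passed. *Tlr3* and *Lbp* were below background on both arrays of mouse 1 and *Tirap* on its KO array, so their differences between mice are not exact.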

How the data were processed

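The 6 arrays are 3 WT and 3 KO cultures of sorted pDCs, 1 of each per mouse, from 200 ng of RNA each. The authors deposited linear intensities for 34760 probe sets, already normalized between arrays. Their background correction, normalization and summary method are not given in the sources used here. By the platform table, 21640 of these name 1 symbol, 1321 several and 11799 none. The 21640 were tested on the log2 scale of the deposited intensities, with no further normalization and no filter, by lmFit and eBayes of limma 3.58.1 (R 4.3.3). Tests were two-sided, and Benjamini-Hochberg adjusted p-values under 0.05 passed. KO and WT were 2 groups. Without the block, intervals and p-values measure the spread between 3 cultures per group, or fewer where arrays were left out. With the mouse as a block, they measure the spread left after differences between mice. The small number of cultures limits the precision, as arrays give no read depth. Per gene, the probe set with the highest mean was kept.

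The labels pair the cultures by mouse. With group means removed, each WT array was most like its own mouse's KO array (r = 0.81, 0.51 and 0.67 over probe sets). For mouse 2 the margin was small, as its WT array had r = 0.495 with the KO array of mouse 3. The block by mouse was an alternative. The mouse test, added after seeing the data, is limma's F test of the mouse terms in that fit. The steps were tested on simulated data. Apart from shifts added for the mouse test, these had no differences between mice. The fit without the block was therefore not tested under the spread between mice seen here. Tables and plots were made with Python 3.11.15, pandas 2.3.3 and matplotlib 3.10.9.

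All measured members are named. For each member with a range of at least 1 on the log2 scale, so are the 3 genes with the nearest profiles. Of list genes, those needed beside a member are named, here all that passed an unadjusted p of 0.05 in the blocked fit or differed between mice. *Tlr7*, *Myd88*, *Ticam1*, *Unc93b1* and *Hsp90b1* were chosen after their values were seen. The members and lists were chosen with earlier results of these data known.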

Additional observations from a re-analysis of the deposited data

How the results depend on the processing

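With the mouse as a block, as under every alternative run, 0 of the 8 genes passed the adjusted p between KO and WT in limma. The block left mean differences as they were, and 1 gene, *Tlr1*, had an unadjusted p under 0.05. Of 162 log2 differences and medians under 18 alternatives, 142 kept their sign and 20 did not, 18 of them with arrays or mice left out. A value with 1 array of a pair left out also holds differences between mice. With arrays or mice left out, the median of the 8 differences ran from -0.59 (without the WT array of mouse 1) to 0.34 (without its KO array), and it was also above 0 when mouse 2 lost its WT array (0.12) or both arrays (0.04) and when mouse 3 lost its WT array (0.03). In the same way *Tlr1* ran from -1.38 to 0.35, *Tlr4* from -1.22 to 0.52, *Cd14* from -1.44 to 0.34, *Ly96* from -0.48 to 0.34, *Tlr2* from -0.19 to 0.37, *Ly86* from -0.0043 to 0.19, *Cd180* from 0.06 to 0.51 and *Tlr6* from -0.69 to -0.0015. *Ly96* was at 0.021 after quantile normalization and *Tlr2* at -0.15 with array weights. The number of genes that differed between mice, 6, was 7 with median centring, a filter on dim probe sets or a trended and robust fit, and 0 to 6 with arrays left out, the 0 being without mouse 1. Levels near background limit the values of *Tlr1* and *Tlr4* in mouse 1.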
